A study of Mus musculus with 2 samples.

Results

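The genes described here are 36 markers of the germline and of meiosis, given as a list of symbols, out of 22485 named genes on a dual-colour Agilent expression array. All 36 were measured, 28 by 1 array feature and 8 by several, whose ratios were averaged. Mouse embryonic stem (ES) cells of the wild-type line V6.5 and of a line labelled UtxKO, for which the labels also give V6.5, were grown on gelatin with leukaemia inhibitory factor (LIF). Utx, the product of the X-linked gene Kdm6a, is a demethylase that removes the repressive histone mark H3K27me3. In both lines, LIF was taken away and 100 nM retinoic acid (RA) was added for 48 h, and this RNA (Cy5) shared an array with RNA of the untreated cells of the same line (Cy3). There was 1 array per line, so no value of a single line has a replicate, and the effects of removing LIF and of adding RA cannot be told apart. The labels do not say whether UtxKO is 1 clone.

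Each value is a deposited log2 ratio, read as RA-treated over untreated RNA, the likely direction given the dyes. A value of 1 is 2-fold higher after RA. The RA targets Cyp26a1 (log2 ratios of 3.54 in V6.5 and 4.27 in UtxKO) and Rarb (2.38 and 2.40) were positive on both arrays. Kdm6a had -0.39 in V6.5 and -0.16 in UtxKO, which compares conditions within a line and so does not check the knockout. Dyes were not swapped, so any bias of a gene toward 1 dye enters both of its ratios with the same sign. Only ratios were used here, so no gene's level is known, and neither is the signal over background behind a ratio. A change in a few cells and a smaller change in all cells cannot be told apart in such bulk RNA.

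Germ cells arise from the epiblast and later enter meiosis, the division that pairs homologous chromosomes, breaks and exchanges their DNA and reduces the chromosome set. RA is the signal for meiotic entry in the fetal ovary and the postnatal testis, and Stra8 is its best known target there. In ES cells and somatic cells many germline genes are silenced, by DNA methylation of CG-rich promoters and by a Polycomb complex that holds E2F6, MGA and MAX and binds E2F and E-box motifs.

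Promoter windows show which of these motifs the genes carry. RefSeq windows of GRCm38.p6, from 250 bases before to 50 bases after a transcription start, were found for 32 of the 36 genes, and the first listed window of each gene was used. The motifs searched on both strands were the E-box CACGTG, the E2F core GCGGGA, the nuclear receptor hexamer AGGTCA, and direct repeats with a spacer of 1, 2 or 5 bases, the form of an RA response element. Each arm of a repeat could be AGGTCA. It could equally be GGGTCA, a sequence the retinoid receptors are known to bind as well. The variant AGTTCA was accepted as an arm in the same way, because natural elements often differ from the ideal repeat. The variant GGTTCA was accepted too. CACGTG reads the same on both strands and was counted once. The hexamer AGGTCA, which is also part of the repeats, was added after the windows had been read. Below, 6 windows are printed 5′ to 3′ on the gene's strand, with every match in capitals. Stra8 (Entrez 20899) and Rec8 (56739) had the highest mean ratios among genes that passed the test, and Dazl (13164) and Mael (98558) had the largest excess in UtxKO. Tex12 and Sycp3 carry both the E-box and the E2F core, and were added after the values had been seen. The windows lie at chr6:34920698-34920997 (plus strand) for Stra8, chr14:55617916-55618215 (plus) for Rec8, chr17:50293571-50293870 (minus) for Dazl, chr1:166238695-166238994 (minus) for Mael, chr9:50561219-50561518 (minus) for Tex12 and chr10:88459337-88459636 (plus) for Sycp3.
Stra8: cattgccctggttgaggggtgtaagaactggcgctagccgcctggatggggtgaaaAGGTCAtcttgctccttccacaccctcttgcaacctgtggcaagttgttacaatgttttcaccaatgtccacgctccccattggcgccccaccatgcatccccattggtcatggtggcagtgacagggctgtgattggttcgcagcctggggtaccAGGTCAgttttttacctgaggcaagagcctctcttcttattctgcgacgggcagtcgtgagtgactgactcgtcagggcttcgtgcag
Rec8: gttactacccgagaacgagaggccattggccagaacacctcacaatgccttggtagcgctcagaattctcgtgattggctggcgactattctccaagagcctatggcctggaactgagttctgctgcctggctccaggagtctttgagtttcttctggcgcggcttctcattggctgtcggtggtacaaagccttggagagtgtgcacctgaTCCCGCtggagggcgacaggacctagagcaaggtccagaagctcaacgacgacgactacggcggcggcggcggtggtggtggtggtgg
Dazl: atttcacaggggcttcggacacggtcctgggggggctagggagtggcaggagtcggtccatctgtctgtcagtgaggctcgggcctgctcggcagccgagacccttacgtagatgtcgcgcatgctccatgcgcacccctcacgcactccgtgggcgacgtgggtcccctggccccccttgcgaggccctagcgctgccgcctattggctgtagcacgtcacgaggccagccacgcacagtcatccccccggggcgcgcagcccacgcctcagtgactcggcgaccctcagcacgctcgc
Mael: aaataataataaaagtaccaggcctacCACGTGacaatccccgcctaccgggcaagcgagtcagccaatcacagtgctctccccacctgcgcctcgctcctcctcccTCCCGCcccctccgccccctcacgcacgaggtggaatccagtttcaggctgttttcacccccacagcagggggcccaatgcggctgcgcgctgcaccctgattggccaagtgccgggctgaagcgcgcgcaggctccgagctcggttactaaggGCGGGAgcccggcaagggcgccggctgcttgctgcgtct
Tex12: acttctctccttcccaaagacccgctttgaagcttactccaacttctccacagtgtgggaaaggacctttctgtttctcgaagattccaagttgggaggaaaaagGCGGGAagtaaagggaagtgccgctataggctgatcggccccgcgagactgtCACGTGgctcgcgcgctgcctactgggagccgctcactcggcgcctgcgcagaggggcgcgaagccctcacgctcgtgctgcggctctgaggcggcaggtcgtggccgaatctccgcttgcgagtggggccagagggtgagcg
Sycp3: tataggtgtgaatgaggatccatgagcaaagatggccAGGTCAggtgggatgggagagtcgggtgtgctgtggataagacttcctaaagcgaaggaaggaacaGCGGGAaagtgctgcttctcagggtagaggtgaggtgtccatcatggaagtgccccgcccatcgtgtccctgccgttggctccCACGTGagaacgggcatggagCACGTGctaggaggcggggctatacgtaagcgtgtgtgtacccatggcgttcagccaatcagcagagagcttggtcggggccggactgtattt

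E-boxes and E2F cores were frequent among these windows. The E-box was present in 11 of 32 windows, 34.4%, against 7.24% of the windows of 27025 genes. The E2F core was present in 14, 43.8%, against 20.0% of all. The windows held a median of 18 CG dinucleotides, from 6 in Msh4 to 38 in Ddx4, against a median of 7 over all genes. The E-box and the E2F core each contain a CG, and the windows of all genes were not matched for CG number. Frequent motifs and frequent CG dinucleotides therefore cannot be told apart here. These counts describe the sequences, and no test was made. Motifs stood in windows of genes that rose and of genes that did not. Among the 10 windows of genes that rose, 3 held an E-box and 4 an E2F core, and among the other 22 windows 8 held an E-box and 10 an E2F core. Medians of CG dinucleotides were 18.5 and 18. Tex12, which rose, has an E2F core that begins 145 bases before the start and an E-box 93 bases before it. Sycp3, which did not pass, has an E2F core 147 bases before the start and E-boxes 64 and 43 bases before it. The hexamer AGGTCA was found in 5 windows, 15.6% against 16.0% of all genes, and Stra8 holds it at 194 and at 38 bases before the start. Direct repeats with the listed spacers were found in 0 of the 32 windows and in 0.226% (spacer 1), 0.263% (spacer 2) and 0.0962% (spacer 5) of the windows of all genes, which says only that these letters do not stand in these stretches.

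**Figure D1:**
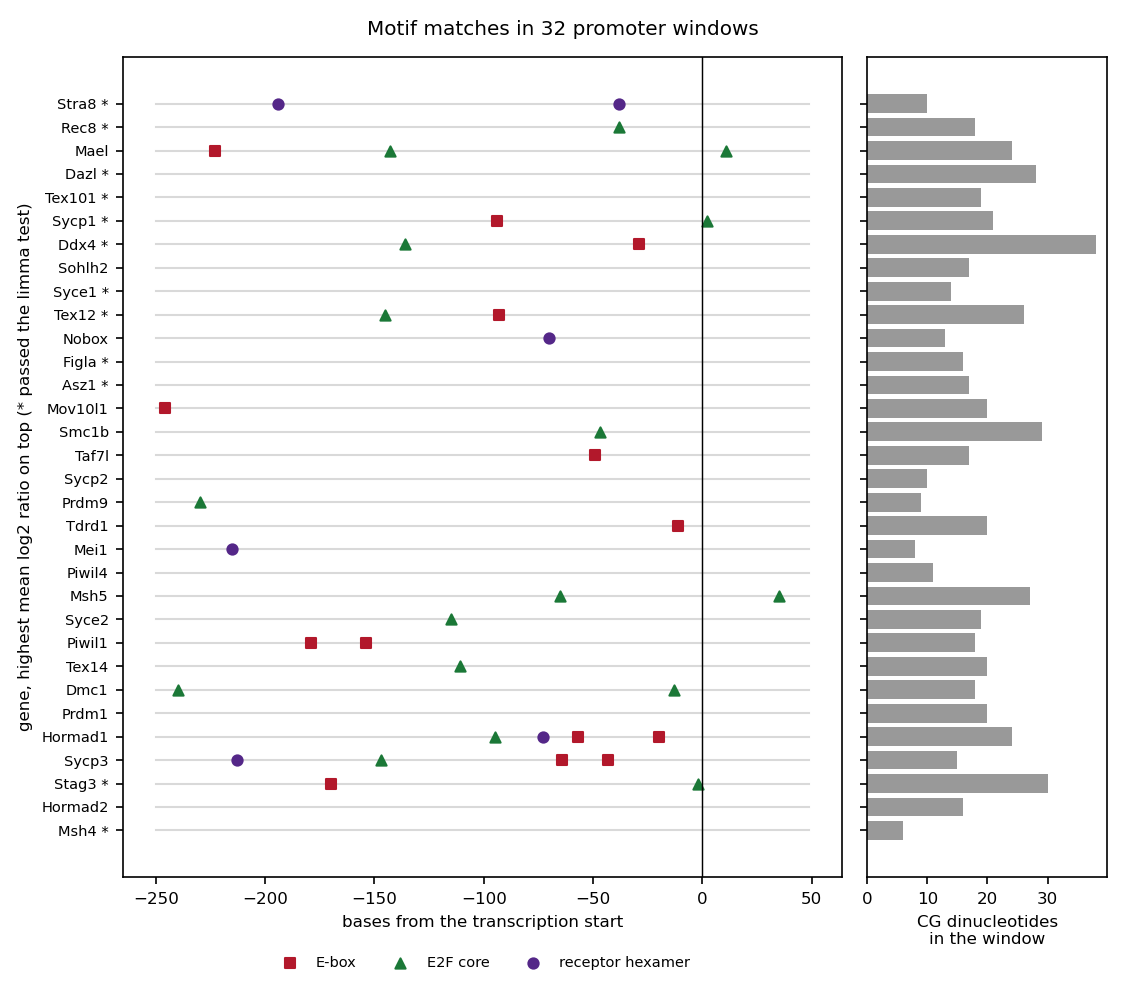
Positions of E-box, E2F core and AGGTCA matches in the promoter windows of 32 genes (left; x axis in bases from the transcription start) and the number of CG dinucleotides in each window (right), with genes ordered by mean log2 ratio and an asterisk on those that passed the limma test. E-boxes and E2F cores lie in windows of genes that passed and of genes that did not. The window of Stra8 at the top and those of Hormad2 and Msh4 at the bottom hold neither.

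For the response common to both lines, limma tested the mean log2 ratio of the arrays against 0. Of the 36 genes 11 rose, 2 fell and 23 did not pass, at a Benjamini-Hochberg adjusted p under 0.05 over all genes. Over all named genes, 8.93% rose and 7.93% fell, and these shares are the scale for each count of a smaller group below. At an unadjusted p under 0.05 in limma, 3785 of the 22485 genes were up and 4027 down, the scale for counts at that cutoff. Stra8 led the genes that rose, followed by Rec8, Dazl, Tex11, Tex101, Sycp1, Ddx4, Syce1, Tex12, Figla and Asz1, and the genes that fell were Msh4 and Stag3. Ratios were above 0 on both arrays for 23 of the 36 genes (34.3% of all genes) and below 0 on both for 8 (41.2% of all genes). The median ratio was 0.21 in V6.5 and 0.30 in UtxKO, against -0.02 on either array over all genes. The lines enter this fit as 2 samples of a common response, with 1 residual degree of freedom and 2.98 prior degrees of freedom. The error of a gene thus comes mostly from the spread between these 2 arrays pooled over all genes. No p-value here measures a spread between replicates of a line. Against a bound of 1.5-fold (limma's treat) 2 of the genes rose, Stra8 and Rec8, where 0.872% of all genes did, and 0 fell (0.431% of all genes; 0 of the 36 also at an unadjusted p under 0.05).

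**Figure D2:**
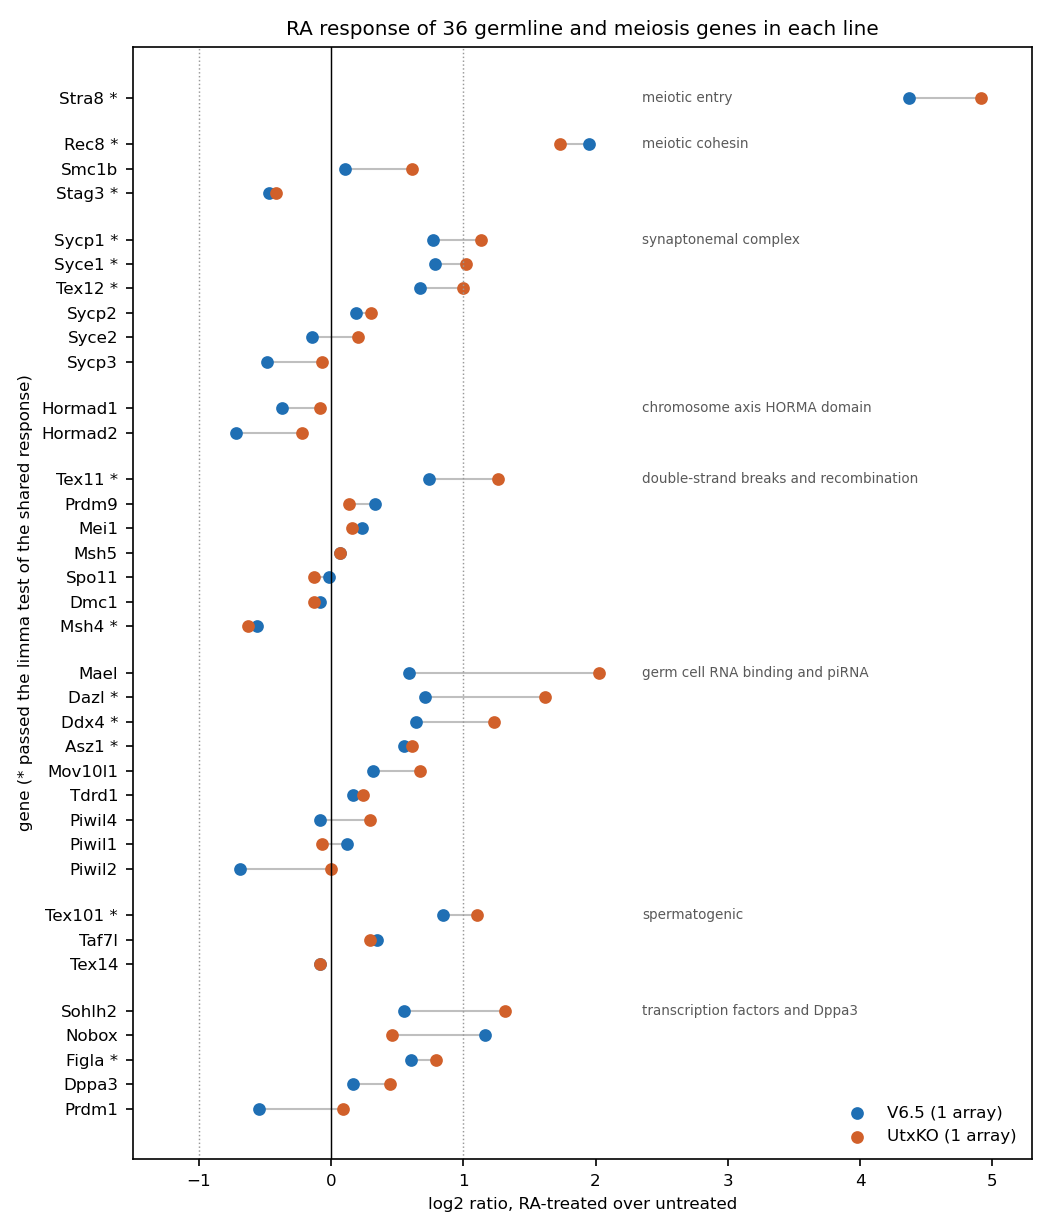
Log2 ratio, RA-treated over untreated (x axis), for each of the 36 genes, grouped by role, in V6.5 (blue) and UtxKO (orange), 1 array each, with dotted lines at 2-fold. Stra8 stands apart at 4.37 and 4.91, and 10 of the UtxKO points but 3 of the V6.5 points lie past 2-fold higher.

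Stra8 had the largest response. This gatekeeper of meiosis, whose product acts with the factor Meiosin to start the meiotic programme, had a log2 ratio of 4.37 in V6.5 and 4.91 in UtxKO, which is 20.7-fold and 30.1-fold higher after RA. Its mean of 4.64 ± 0.15 (limma's moderated SE, n = 2 arrays) passed with an adjusted p of 0.00519 and was the 11th highest of all 22485 genes. Stra8 was high on both arrays.

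Cohesin holds sister chromatids together, and meiotic cells use variants of its subunits. Rec8, the kleisin subunit of meiotic cohesin, had 1.95 in V6.5 and 1.73 in UtxKO, a mean of 1.84 ± 0.09 with an adjusted p of 0.00758 in limma. It was the only gene of the list besides Stra8 to be at least 2-fold higher on both arrays (1.69% of all genes), and its ratio was the higher one in V6.5. The other cohesin subunits went differently. Smc1b, the SMC subunit, had 0.10 and 0.61 and did not pass. Stag3, the STAG subunit, fell with -0.47 and -0.42 (mean of -0.44 ± 0.07, adjusted p of 0.0342). The 3 subunits of this complex therefore split into 1 that rose, 1 that did not pass and 1 that fell.

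The synaptonemal complex is the protein zipper between paired homologues. Of its 6 measured genes 3 rose and 0 fell, with 0 down at an unadjusted p under 0.05 in limma. Sycp1, the transverse filament, had 0.77 in V6.5 and 1.14 in UtxKO (mean of 0.96 ± 0.12, adjusted p of 0.0206). The central element gene Syce1 had 0.79 and 1.02 (mean of 0.90 ± 0.09, adjusted p of 0.0164). Tex12, whose product is also part of the central element, had 0.67 and 1.00 (mean of 0.84 ± 0.11, adjusted p of 0.0224). Those 3 genes thus stood within a narrow range on each array, and each was higher in UtxKO. The remaining central element gene, Syce2, had -0.14 and 0.21 and did not pass. Both lateral element genes stayed short of the threshold too, Sycp2 with 0.19 and 0.30 and Sycp3 with -0.49 and -0.07. Hormad1 and Hormad2, whose HORMA-domain products mark unpaired chromosome axes, were below 0 on both arrays, with -0.37 and -0.09 for Hormad1 and -0.72 and -0.22 for Hormad2. In limma both missed the threshold, with adjusted p of 0.209 for Hormad1 and 0.106 for Hormad2.

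Of 7 genes of meiotic double-strand breaks and recombination, 1 rose and 1 fell (8.93% and 7.93% of all named genes). Spo11, the enzyme that makes the breaks, had -0.02 and -0.13. Prdm9, the histone methyltransferase that places them, had 0.33 and 0.14, and Mei1, needed for their formation, 0.24 and 0.16. Dmc1, the meiotic recombinase that pairs a broken end with the homologue, had -0.09 and -0.13. None of these 4 passed, and each had a size under 1.5-fold on both arrays. Tex11, an X-linked gene for a protein of crossover formation, rose with 0.74 in V6.5 and 1.26 in UtxKO (mean of 1.00 ± 0.15, adjusted p of 0.0282). Msh4, a MutS homologue that stabilises crossover intermediates, fell with -0.56 and -0.63 (mean of -0.59 ± 0.07, adjusted p of 0.0213). Its binding partner Msh5 had 0.07 on both arrays, each the mean of 2 features of opposite sign, and did not pass.

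Germ cells protect their genome from transposons with small piRNAs and regulate stored messages with RNA-binding proteins. In this group of 9 genes 3 rose and 0 fell, with 0 down at an unadjusted p under 0.05 in limma. Dazl, an RNA-binding protein that licenses germ cells for gamete formation, had 0.71 in V6.5 and 1.62 in UtxKO. Its mean was 1.17 ± 0.24 with an adjusted p of 0.0493, and the call was lost with robust eBayes (adjusted p of 0.0563). Ddx4, the RNA helicase known as Vasa, had 0.64 and 1.24 (mean of 0.94 ± 0.17, adjusted p of 0.0375). Asz1, which anchors the germ granule at mitochondria, had 0.55 and 0.61 (mean of 0.58 ± 0.07, adjusted p of 0.0217). Asz1 was thus alike on both arrays, while Dazl and Ddx4 were higher in UtxKO.

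Mael, a piRNA pathway protein of the nuage, had 0.59 in V6.5 and 2.02 in UtxKO, 1.51-fold and 4.06-fold higher after RA. It had the third highest mean of the list (1.31 ± 0.37) yet did not pass (adjusted p of 0.0894 in limma), and its arrays lay further apart than those of any other gene of the list. Mov10l1, the helicase that feeds piRNA precursors into processing, had 0.32 and 0.67, with an adjusted p of 0.0612. Tdrd1, a Tudor scaffold of the germ granule, had 0.17 and 0.24. The Piwi proteins, which bind piRNAs, did not pass: Piwil1 had 0.12 and -0.07, Piwil2 -0.69 and 0.00, and Piwil4 -0.08 and 0.30.

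Of 3 genes named for spermatogenesis 1 rose and 0 fell, with 0 down at an unadjusted p under 0.05 in limma. Tex101, a surface glycoprotein of male germ cells, had 0.84 in V6.5 and 1.10 in UtxKO (mean of 0.97 ± 0.10, adjusted p of 0.0158). Taf7l, an X-linked germ cell variant of a TFIID subunit, had 0.35 and 0.30 with an adjusted p of 0.0600, and Tex14, needed for the bridges between germ cells, had -0.08 and -0.09. In the group of 4 transcription factors and Dppa3, 1 rose and 0 fell, with 0 down at an unadjusted p under 0.05. Figla, the oocyte factor that drives zona pellucida genes, rose with 0.60 and 0.79 (mean of 0.70 ± 0.09, adjusted p of 0.0210). Sohlh2, a factor of early oocytes and spermatogonia, had 0.55 and 1.32 with an adjusted p of 0.0558. Nobox, an oocyte homeobox factor, had 1.17 and 0.46 with an adjusted p of 0.0635, the highest V6.5 ratio of this group and lower in UtxKO. Dppa3, a maternal protein of primordial germ cells that is also active in naive ES cells, had 0.17 and 0.44. Prdm1, the repressor that specifies primordial germ cells, had -0.54 and 0.09, so its arrays lay on either side of 0.

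Looking at each line alone, 3 of the 36 genes were at least 2-fold higher in V6.5, where 2.52% of all genes were, and 0 were at least 2-fold lower (1.59% of all genes). They were Stra8, Rec8 and Nobox. In UtxKO 10 were at least 2-fold higher (2.92% of all genes) and 0 at least 2-fold lower (1.65%). Those 10 were Stra8, Mael, Rec8, Dazl, Sohlh2, Tex11, Ddx4, Sycp1, Tex101 and Syce1. There is no test within a line. The count rests on the bound, since at 1.5-fold 12 genes were higher in V6.5 and 15 in UtxKO. Shares of all genes at 1.5-fold were not computed, so the counts at that bound have no scale here. Across the 36 genes the ratios of the 2 arrays had a Pearson correlation of 0.92 and a Spearman correlation of 0.86, against a Pearson correlation of 0.84 over all genes. Without Stra8 the Pearson correlation over the other 35 genes was 0.80. Genes on 1 array share its RNA and its dyes, so these values are a description.

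**Figure D3:**
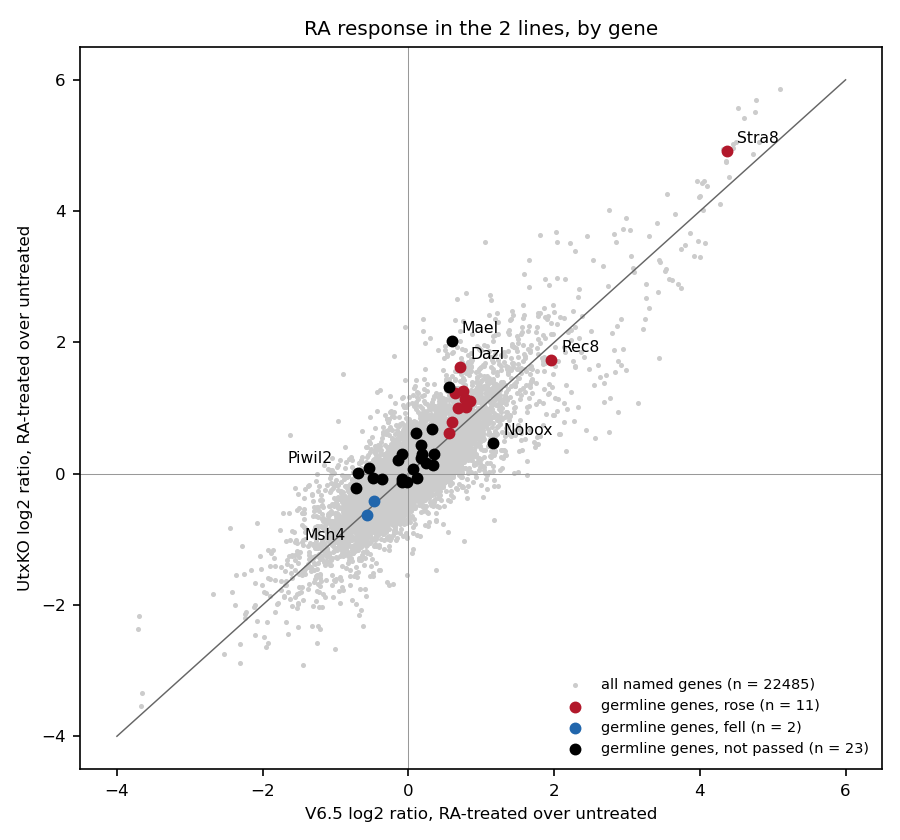
Log2 ratio in V6.5 (x axis) against UtxKO (y axis) for all 22485 named genes (grey) and the 36 germline genes, coloured by their limma call, with the line of equal ratios. Most germline genes lie above that line, Mael furthest, while Nobox lies below it.

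The difference between the lines is the UtxKO ratio minus the V6.5 ratio on the log2 scale. It was above 0 for 26 of the 36 genes, where it was above 0 for 50.7% of all genes, with a median of 0.27 against 0.00 over all genes. It has no test, since each line is 1 array. As a scale for the spread within an array, genes covered by 2 to 9 features had a median SD between those features of 0.14 on either array. This SD holds no variation between arrays or cultures, which also enters the difference, so it is not a bound for it. Mael had the largest difference, 1.43, and was the only gene of the 36 past 2-fold (0.583% of all genes). It was followed by Dazl (0.91), Sohlh2 (0.77), Piwil2 (0.69), Prdm1 (0.63), Ddx4 (0.59) and Stra8 (0.54). On the other side 0 genes had a UtxKO ratio at least 2-fold below that of V6.5 (0.467% of all genes). Nobox was the lowest with -0.71, then Rec8 with -0.22. By role, all 6 synaptonemal complex genes and 8 of 9 RNA-binding and piRNA genes had a higher ratio in UtxKO (50.7% of all genes). Among recombination genes 2 of 7 did. Median differences of these groups were 0.34, 0.38 and -0.07. The counts are of signs only, and some differences were small, such as 0.06 for Asz1, 0.07 for Tdrd1, 0.11 for Sycp2 and 0.00 for Msh5. All groups come from the same 2 arrays, and no group was tested against another. The X-linked genes, which share their chromosome with Kdm6a, were Tex11 with a difference of 0.52 and Taf7l with -0.05.

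**Figure D4:**
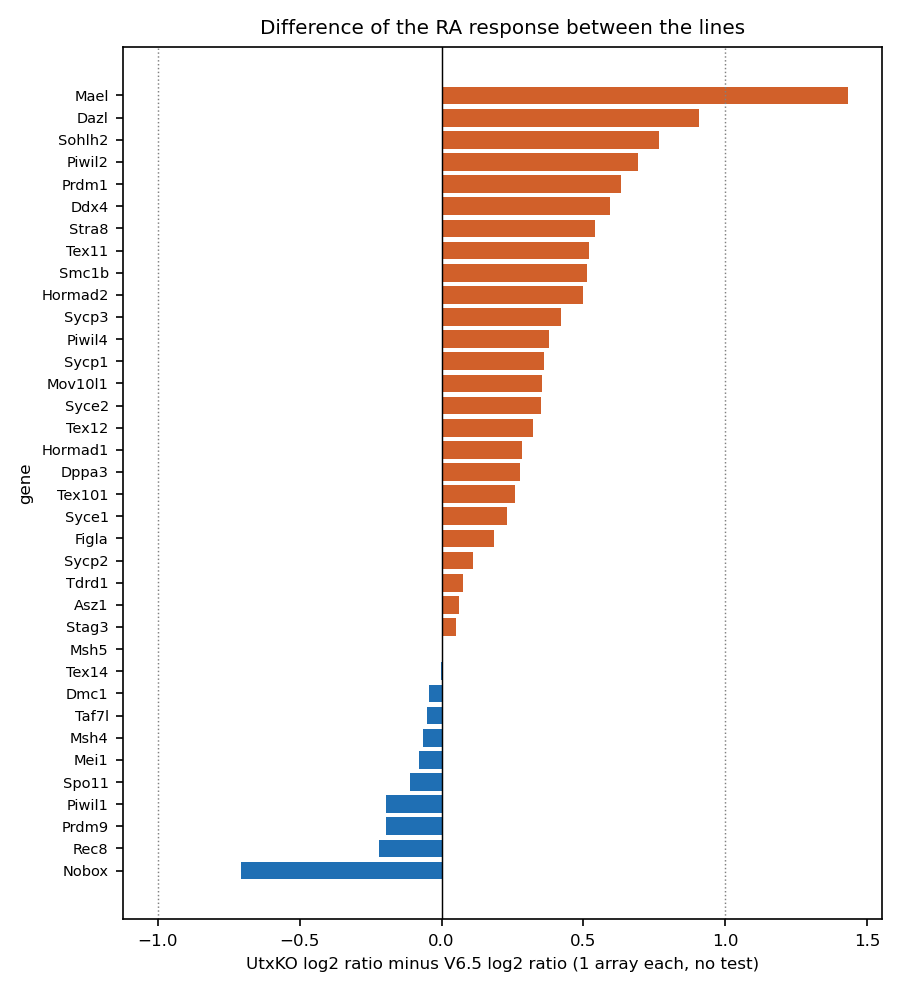
UtxKO log2 ratio minus V6.5 log2 ratio (x axis) for the 36 genes, 1 array per line and no error, with dotted lines at 2-fold. Bars run from -0.71 for Nobox to 1.43 for Mael, and 26 of 36 point to UtxKO.

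Genes with several features show how far a ratio depends on the feature. Tex12 was measured by 10 features, whose ratios ran from 0.59 to 0.78 in V6.5 (SD of 0.06) and from 0.82 to 1.14 in UtxKO (SD of 0.11). The ranges of the arrays did not overlap for Tex12, and in a fit on single features all 10 passed. This spread is technical, and whether the 10 are repeat spots of 1 probe is not given in the sources used here. In Tex11 the features disagreed: 1 had 1.34 in V6.5 and 1.99 in UtxKO (adjusted p of 0.0129 in limma over features), and the other 0.14 and 0.54 (adjusted p of 0.143). In Msh4 likewise 1 feature had -0.80 and -1.06 (adjusted p of 0.0135) and the other -0.32 and -0.20 (adjusted p of 0.115). The rise of Tex11 and the fall of Msh4 thus each rest on 1 of 2 features. Prdm9 had 1 feature at 0.63 and 0.41 (adjusted p of 0.0343) and another at 0.04 and -0.14 (adjusted p of 0.751). The features of Sycp3 were close together on each array, from -0.49 to -0.48 in V6.5 and from -0.11 to -0.02 in UtxKO. Those of Dmc1, Hormad1 and Msh5 did not pass singly. In Msh5 1 feature had -0.11 in V6.5 and 0.16 in UtxKO, and the other 0.25 and -0.02. In Hormad1 1 feature had -0.43 and -0.33, and the other -0.31 and 0.15.

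**Figure D5:**
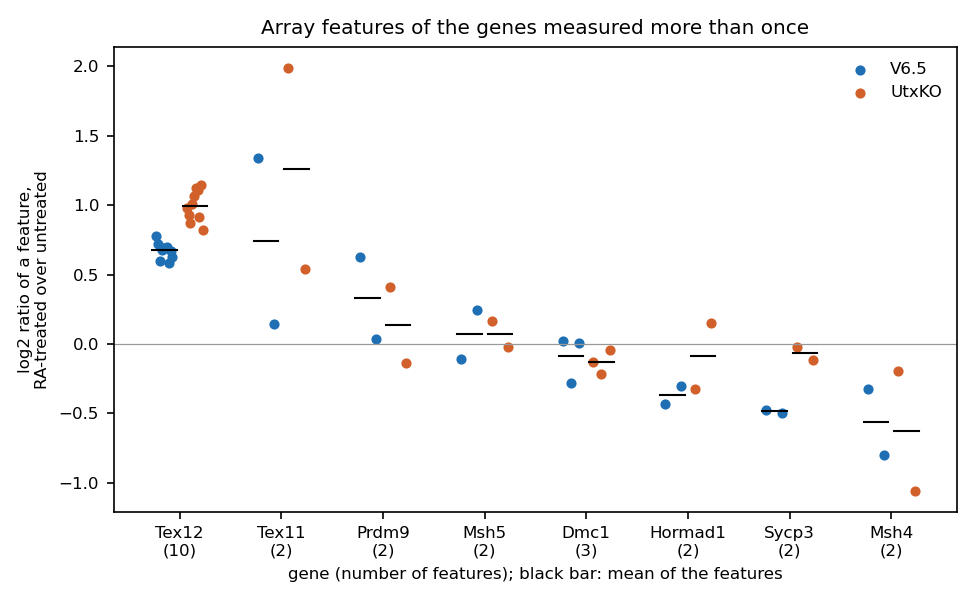
Log2 ratio of every array feature (points; V6.5 blue, UtxKO orange) of the 8 genes measured by more than 1 feature, with the mean as a black bar and the number of features under each gene name. The 10 features of Tex12 lie close together on each array, while the 2 features of Tex11, Msh4 and Prdm9 lie apart.

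Wider germline lists place these genes among others of their kind. For scale, 8.93% of all named genes rose and 7.93% fell, and at an unadjusted p under 0.05 in limma 3785 of 22485 were up and 4027 down. Of 27 other measured meiosis genes 4 rose and 0 fell, with 4 down at an unadjusted p under 0.05 in limma, and the medians were -0.01 in V6.5 and 0.15 in UtxKO. The highest were Cpeb1, a regulator of stored messages in oocytes (1.15 and 1.72), and Meioc, needed to hold the meiotic programme (0.69 and 1.12). Of 16 other piRNA and germ granule genes 4 rose and 1 fell, with medians of 0.06 and 0.25. The Tudor genes Tdrkh (1.15 and 1.20) and Tdrd7 (1.07 and 1.27) rose, and Pld6, a mitochondrial factor of piRNA processing, fell (-0.92 and -0.69).

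Of 24 genes of spermatogonia and spermatids 9 rose and 2 fell (8.93% and 7.93% of all named genes), with medians of 0.13 and 0.14. The receptor Ret (1.19 and 2.36) and the X-linked homeobox gene Rhox13 (1.11 and 2.42) had the highest means, and the spermatogonial genes Id4 (-1.43 and -1.48) and Etv5 (-1.17 and -0.72) fell. Of 18 genes of primordial germ cells 4 rose and 3 fell, with medians of -0.04 and 0.01. Tfap2c, a factor of germ cell specification (0.86 and 1.09), and the alkaline phosphatase gene Alpl (1.00 and 0.76) rose, while the RNA-binding genes Elavl2 (-0.72 and -0.85) and Dnd1 (-0.64 and -0.36) fell. Of 18 oocyte genes 1 rose (5.56%) and 2 fell (11.1%), near the shares of all named genes, with medians of -0.03 and 0.01. Nlrp5, a maternal effect gene (1.22 and 0.71), rose, and Tcl1 (-1.38 and -1.43) and Khdc3 (-1.56 and -1.03), both also active in ES cells, fell. The counts differ from list to list, and no list was tested against another.

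Of 27 genes known to silence germline genes, or to act on the DNA methylation at them, 2 rose (7.41%) and 4 fell (14.8%). Over all named genes 8.93% rose and 7.93% fell, and at an unadjusted p under 0.05 in limma 3785 of 22485 were up and 4027 down. The median of these 27 genes was -0.11 on either array, with 5 up and 9 down at an unadjusted p under 0.05 in limma. Yaf2, a subunit of variant Polycomb complexes, had 0.76 and 1.02, and E2f6 itself 0.64 and 0.68 (mean of 0.66 ± 0.07, adjusted p of 0.0178); both rose. Pcgf6 (-0.07 and -0.04), Max (-0.06 and -0.12) and Mga (-0.60 and -0.20) did not pass, with adjusted p of 0.631, 0.452 and 0.106 in limma. The methylcytosine dioxygenases Tet1 (-0.98 and -1.16) and Tet2 (-0.48 and -0.83) fell, and the DNA methyltransferase Dnmt3b had -0.53 and -0.31 with an adjusted p of 0.0544 in limma. Tet1 and Tet2 are listed for acting on DNA methylation, so the 4 that fell do not count silencers alone. Ehmt2 (-0.52 and -0.61) and Hdac2 (-0.41 and -0.45) fell too, with adjusted p of 0.0243 and 0.0360 in limma.

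Markers of other cell types and states moved on the same arrays, and their part in the germline ratios was not tested. Again, 8.93% of all named genes rose and 7.93% fell, and at an unadjusted p under 0.05 in limma 3785 of 22485 were up and 4027 down. Of 12 markers of the 2-cell-like state, a rare state of ES cells, 9 rose and 0 fell, with 2 down at an unadjusted p under 0.05 in limma, and Gm4340 (5.10 and 5.86) and Zscan4f (4.77 and 5.69) had the highest means. Of 12 pluripotency markers 4 fell and 0 rose, with 0 up at an unadjusted p under 0.05, led by Klf4 (-1.65 and -2.44) and Pou5f1 (-0.94 and -1.58). Of 13 fibroblast markers 9 fell and 0 rose, with 0 up at an unadjusted p under 0.05, led by S100a4 (-1.95 and -2.63) and Vim (-1.52 and -1.98). Of 12 extraembryonic endoderm markers 2 fell, Lama1 (-0.76 and -0.97) and Sparc (-0.79 and -0.70), and 0 rose, with 3 up at an unadjusted p under 0.05. Of 13 markers of the somatic gonad, the cells that surround germ cells, 2 rose, Wt1 (2.98 and 3.89) and Dhh (0.91 and 0.62), and 0 fell, with 2 down at an unadjusted p under 0.05. Ratios do not show which of these markers were at or near 0.

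The nearest measured genes on either side of the 13 genes that passed were examined after the values had been seen, with gene order from GRCm38.p6. Of these 26 neighbours 5 rose and 2 fell, where 8.93% of all named genes rose and 7.93% fell. The median of their mean ratios was 0.01. Both neighbours of Dazl rose, Rftn1, a lipid raft protein, with 0.88 and 0.68, and Plcl2, a phospholipase C-like protein, with 0.75 and 0.60. Dazl was the only gene of the 13 with a rise on both sides. Next to Stra8, Wdr91 rose with 0.34 and 0.47 and Slc23a4 had -0.12 and -0.03. Irf9 (-0.08 and -0.03) and Ipo4 (-0.12 and -0.05), the neighbours of Rec8, did not pass. The genes beside Stra8 and Rec8 had smaller ratios than Stra8 and Rec8, and a shared change of neighbouring genes was not tested.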

How the data were processed

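The arrays were 2 dual-colour Agilent expression arrays of total RNA, 1 of V6.5 and 1 of UtxKO cells. The deposited values, 1 per feature and array for 44397 features, were taken as log2 ratios of Cy5 over Cy3. The base was inferred from their range. Limma is named, without version or role, per the submitters' processing notes, while background correction, normalization within arrays and genome build were not given in the sources used here. The number of arrays limits the precision.

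The platform annotation gave 1 symbol for 33026 features, several for 0 and none for 11371. Features of a gene were averaged. For the shared response, limma 3.58.1 under R 4.3.3 fitted the mean of both ratios (lmFit, eBayes, two-sided, Benjamini-Hochberg over 22485 genes, threshold 0.05). The step was also run on simulated data with noise drawn alike for every gene, which does not measure its error rate in these data. Differences between lines were described without a test. Python 3.11.15, numpy 2.4.6, pandas 2.3.3 and matplotlib 3.10.9 did the rest. Every gene of the list was named, and from each of the 6 other germline lists and 5 marker lists up to 2 genes with the highest mean among those that rose and up to 2 with the lowest among those that fell, plus Dnmt3b, E2f6, Pcgf6, Mga and Max. Outside this rule, Kdm6a, the RA targets Cyp26a1 and Rarb, Ehmt2, Hdac2 and the neighbours of Stra8, Rec8 and Dazl are named, chosen with values known. Listed symbols not on the array were looked up among RefSeq synonyms. The genes and lists were chosen with earlier results of these data known. Promoter sequences are RefSeq's for GRCm38.p6. Alternatives were robust eBayes, median centring, the median of features, arrays scaled to 1 spread, single features, treat and a bound of 1.5-fold.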

Additional observations from a re-analysis of the deposited data

Results flagged for a closer look

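For 5 of the 36 genes the V6.5 and UtxKO arrays had ratios of opposite sign, which flagged them. These differences, UtxKO minus V6.5 on the log2 scale, rest on 1 array per line and were not tested. They were 0.69 for Piwil2, 0.63 for Prdm1, 0.38 for Piwil4, 0.35 for Syce2 and -0.19 for Piwil1. For Piwil2 the UtxKO ratio was 0.00. Over all named genes, 5480 of 22485 had opposite signs.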

How the results depend on the processing

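The 11 genes that rose became 10 with robust eBayes, 15 with median centring and 11 with the median of features. They became 12 with arrays scaled to 1 spread and 13 with single features, and the 2 that fell stayed 2 in each of these. Shares of all named genes under these settings were not computed, so the counts have no scale. With single features, a gene counted if at least 1 feature passed and none passed the other way, a looser rule for genes with several features. With robust eBayes Dazl was lost. Median centring, which raised every ratio by about 0.03, kept all 11 and added Sohlh2, Taf7l, Mov10l1 and Nobox, and scaling added Sohlh2. Against 1.5-fold (limma's treat), 2 genes rose and 0 fell (0.872% and 0.431% of all genes), with 9 up and 0 down at an unadjusted p under 0.05. The share of all genes at that unadjusted p was not computed for treat. With a bound of 1.5-fold in place of 2-fold, 12 genes were higher and 2 lower in V6.5, and 1 was lower in UtxKO. At that bound 6 had a UtxKO ratio past it above V6.5 and 1 below. Shares of all genes at this bound were not computed. The list's median ratio was 0.21 in V6.5 and 0.30 in UtxKO, and with median centring 0.24 and 0.33. With median centring, the median of features and scaled arrays, the 36 mean ratios kept their sign; of the single features of Prdm9, 1 had a mean of 0.52 and the other -0.05. No paired analysis was possible because each line has 1 array. Leaving out an array leaves 1 ratio and no test, and a filter on dim probes was not run, since only ratios were used.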
